A study of Mus musculus with 2 samples.

Results

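The genes described are *Tnf*, *Il6*, *Il10* and *Tgfb1*, which encode 4 cytokines, and their receptor genes *Tnfrsf1a*, *Tnfrsf1b*, *Il6ra*, *Il10ra*, *Tgfbr1* and *Tgfbr2*. These 10 genes, called members here, were picked by symbol from the 32524 genes counted, and all 10 were found. They were measured by droplet-based single-cell RNA sequencing of CD45+CD11b+ cells sorted from the synovium of the hind paws of arthritic wild-type C57BL/6 mice. One group of 4 mice had received 1 mg β-glucan, a fungal cell wall polysaccharide used to train innate immune cells, 7 days before arthritis was induced, and the other group of 4 had received PBS. Mice were adult at the start, and cells of both groups were sorted at day 17 of arthritis. The sample labels describe an arthritogenic antibody cocktail (1.5 mg) with lipopolysaccharide (50 µg on day 3). The design text of the series and the methods and figure captions of the study give K/BxN serum transfer for these cells. The labels thus differ from the study, whose account is followed here. Each group is 1 library of pooled mice with no map from cells to mice. No difference between the groups therefore has a replicate check, and no test across samples was possible.

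TNF is made as a membrane protein that is shed, and it acts through TNFR1 (*Tnfrsf1a*), which most cells carry, and TNFR2 (*Tnfrsf1b*), which is found mainly on immune cells. IL-6 binds IL-6Rα (*Il6ra*) and then gp130, which signals through JAK kinases and STAT3, and soluble IL-6Rα lets cells without the receptor chain respond through gp130. IL-10 uses IL-10Rα (*Il10ra*) with IL-10Rβ and also signals through STAT3, in macrophages to restrain inflammatory genes. TGF-β1 is secreted in a latent form, and once released it binds TGFβRII (*Tgfbr2*), which activates TGFβRI (*Tgfbr1*) and Smad proteins. In arthritic joints TNF and IL-6 are drivers of inflammation and bone erosion, IL-10 is a restraint, and TGF-β shapes resident macrophages and matrix.

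The β-glucan library held 5696 cells that passed the filter of at least 500 genes and at most 10% mitochondrial counts, and the PBS library held 4553. Median depth was 12457.5 and 14475 unique molecular identifiers (UMIs, each one captured RNA molecule) per cell. Cells fell into 20 rebuilt clusters, which were named from marker genes. Macrophage-like cells (7 clusters), antigen-presenting cell-like (APC-like) cells (3 clusters) and a cluster led by *Plac8*, *Chil3* and *Ly6c2* made up the main myeloid compartment of 4613 β-glucan and 3677 PBS cells. The *Plac8*-led cluster was left without a name, since 2 of the monocyte markers on the list reached 25% of its cells, and so was a cluster led by *Fabp4* and *Acta2*, since vessel-wall muscle genes led it. Of the genes of the sort, *Ptprc* (CD45) had a UMI in 4426 and 3527 compartment cells and *Itgam* (CD11b) in 4028 and 3309. Stromal-like cells (106 and 73), which carried *Ptprc* at 19.5 and 34.6 CPM, were also present and do not match the label of the sort. *Itgam* had a UMI in 56 of 324 and 32 of 245 B cell-like, 23 of 117 and 20 of 124 T cell-like, and 39 of 85 and 19 of 56 NK/cytotoxic-like cells, classes that carried *Ptprc*. In basophil/mast-like cells *Itgam* had a UMI in 18 of 94 and 5 of 99, and *Ptprc* in 69 and 68. Levels are CPM, the UMIs of a gene summed over a set of cells scaled to a total of 1000000 UMIs, and ratios are β-glucan over PBS on the log2 scale. All intervals are exact 95% intervals and cover counting error only. Both libraries shared 7 barcodes, 2 of them among the cells kept.

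The stretches of 250 bases before the annotated start of *Il6*, *Tnf* and *Tgfb1* are shown, the ligand genes for which a window was found. They are RefSeq sequences of GRCm38.p6, 5′ to 3′ on the strand of the gene, and capitals mark the matches to the motifs searched. *Il6* is the window chr5:30012864-30013113 on the plus strand, *Tnf* is chr17:35202008-35202257 on the minus strand, and *Tgfb1* is chr7:25686752-25687001 on the plus strand.
Il6: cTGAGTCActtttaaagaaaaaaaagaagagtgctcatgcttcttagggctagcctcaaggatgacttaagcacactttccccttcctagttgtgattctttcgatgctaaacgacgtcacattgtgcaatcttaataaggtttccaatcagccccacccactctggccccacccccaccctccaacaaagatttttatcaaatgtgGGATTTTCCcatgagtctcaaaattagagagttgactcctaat
Tnf: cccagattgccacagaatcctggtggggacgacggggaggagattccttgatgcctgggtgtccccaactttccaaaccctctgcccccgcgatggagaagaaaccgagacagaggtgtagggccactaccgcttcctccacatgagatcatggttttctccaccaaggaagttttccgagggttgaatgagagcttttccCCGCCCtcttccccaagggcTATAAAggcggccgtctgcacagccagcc
Tgfb1: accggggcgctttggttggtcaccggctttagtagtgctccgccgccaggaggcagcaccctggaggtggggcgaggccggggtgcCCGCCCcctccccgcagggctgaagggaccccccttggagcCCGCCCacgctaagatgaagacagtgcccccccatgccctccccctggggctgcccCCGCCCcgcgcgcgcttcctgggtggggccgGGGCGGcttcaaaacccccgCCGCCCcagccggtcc

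The *Il6* window held a match to the NF-κB motif GGNNTTTCC that begins 43 bases before the start and a match to the AP-1 motif TGANTCA that begins 249 bases before it. In the *Tnf* window a TATA box (TATAAA) began 29 bases before the start and a GC box (GGGCGG, here as its reverse complement CCGCCC) 49 bases before it. The *Tgfb1* window had no TATA box and 5 GC boxes, and its GC content was 75.2%, against 57.6% for *Tnf* and 42.8% for *Il6*. Both strands were searched, and of 32851 windows of this length 4.93% held the NF-κB motif, 6.75% the AP-1 motif, 12.4% a TATA box and 32.7% a GC box. Windows were found for 8 of the 10 members, all but *Il10* and *Il10ra*, 9 windows in all because *Tgfbr1* had more than 1. Among these, the NF-κB and AP-1 motifs were found only for *Il6*, the TATA box only for *Tnf*, and GC boxes for 4 windows. The STAT motif TTCNNNGAA, held by 7.02% of all windows, occurred in those of *Tnfrsf1a* and *Tnfrsf1b*, and the CRE motif TGACGTCA, held by 1.55%, in none. A match is a run of letters and not a measured binding site.

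The 4 ligands differed in how their UMIs were spread over the cell classes. *Tgfb1* UMIs were spread over the cell classes about as all UMIs were, *Tnf* UMIs came from macrophage-like and APC-like cells in number but were densest in basophil/mast-like and T cell-like cells, *Il10* was sparse with its highest level in T cell-like cells, and *Il6* came almost entirely from a few cells. Macrophage-like cells gave 60.6% of all UMIs, 62.0% of *Tgfb1* UMIs, 53.1% of *Il10* UMIs, 45.6% of *Tnf* UMIs and 1.1% of *Il6* UMIs. APC-like cells, which gave 22.1% of all UMIs, gave 30.6% of the *Tnf* UMIs. T cell-like cells gave 6.3% of *Tnf* and 15.7% of *Il10* UMIs.

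**Figure D1:**
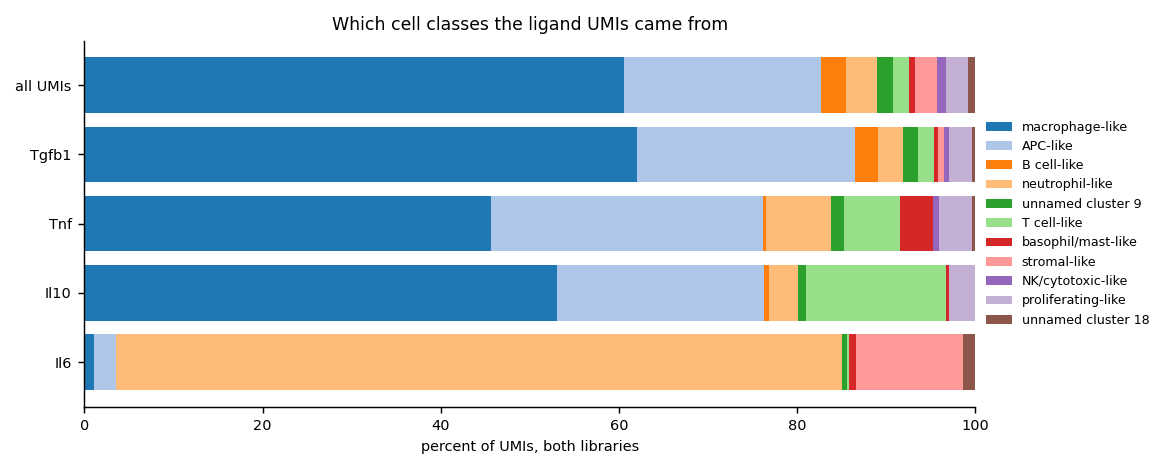
Percent of UMIs (x axis, both libraries summed) that each cell class gave, for all genes together and for the 4 ligand genes; colours are the cell classes. Macrophage-like and APC-like cells give most of the *Tgfb1*, *Tnf* and *Il10* UMIs, whereas 81.5% of *Il6* UMIs lie in the neutrophil-like cluster.

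*Tnf* (ENSMUSG00000024401, chromosome 17, 35418357 to 35420983, minus strand, GRCm39) encodes the cytokine TNF. Its UMIs numbered 2208 with β-glucan and 2660 with PBS. The level was highest in basophil/mast-like cells, with 153 CPM (122 to 188) and 208 CPM (168 to 253). These cells expressed the mast cell protease gene *Mcpt4* and the stem cell factor receptor gene *Kit*, whereas *Mcpt8*, a basophil protease gene, had 1 UMI in each library. T cell-like cells followed at 95.7 and 130 CPM and neutrophil-like cells at 59.4 and 87.8 CPM. Over both libraries, the intervals of these 3 classes did not overlap, so their order exceeded the counting error. One PBS cell held 61 of the 192 *Tnf* UMIs of the T cell-like cells in that library.

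In APC-like cells *Tnf* stood at 33.9 CPM with β-glucan and 54.4 CPM with PBS, and in macrophage-like cells at 24.0 and 25.3 CPM. B cell-like cells had 4.42 and 3.31 CPM. Stromal-like cells had 0 UMIs with β-glucan, which allows up to 1.46 CPM, and 2 UMIs with PBS. The order by share of cells was alike when each cell was thinned to 5000 UMIs, which left out 683 β-glucan and 542 PBS cells. A *Tnf* UMI was then found in 46.3% and 41.9% of basophil/mast-like, 27.5% and 26.8% of T cell-like, 11.01% and 13.8% of APC-like and 6.70% and 7.53% of macrophage-like cells. Without thinning these were 46.8% and 45.5%, 41.9% and 40.3%, 23.9% and 29.5%, and 14.5% and 16.6%. None of the 105 and 73 thinned stromal-like cells had a *Tnf* UMI, at a median depth of 17689 and 20874 UMIs before thinning against 3792 and 3399 in basophil/mast-like cells.

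In the compartment, *Tnf* was at 26.1 CPM with β-glucan and 34.2 CPM with PBS, a log2 ratio of -0.39 (-0.49 to -0.30), or 0.76-fold. A gene was called where its mean was at least 5 CPM, the level was at least 25% higher in one library than in the other and the interval of the ratio left out 0. Among the 8 members at or above the minimum, *Tnf* was called lower, no other member was called lower and 0 were called higher. Over all 9806 genes at or above the minimum, 3.85% were called higher and 3.1% lower. With 8 genes, 1 call is not read as a difference from those shares.

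The lower compartment level of *Tnf* lay in part of its clusters. In the APC-like cluster led by *Ccl17*, *Cd209a* and *Mmp12*, *Tnf* had 272 UMIs in 289 β-glucan cells (42.3 CPM) and 762 UMIs in 436 PBS cells (72.3 CPM), a log2 ratio of -0.77 (-0.98 to -0.57). This cluster held 12.3% of the *Tnf* UMIs of the β-glucan library and 28.6% of those of the PBS library. Without it, a choice made after seeing the data, the compartment ratio was -0.11 (-0.22 to 0.00), and in macrophage-like cells alone it was -0.08 (-0.20 to 0.04), so the call was lost in both cases.

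Macrophage-like clusters went in both directions. The cluster led by *Spp1* and *Nt5e* had 35.0 and 32.4 CPM of *Tnf*, the one led by *Vsig4* and *S100b* 16.5 and 14.4 CPM, while the one led by *Olr1* had 312 UMIs in 324 cells and 235 UMIs in 181 cells (-0.26). In the cluster led by *Fxyd2* and *Aqp1* the level was 11.97 CPM with β-glucan and 38.5 CPM with PBS, a log2 ratio of -1.69, with 28 of the 111 PBS UMIs in 1 cell. Of 12 clusters large enough to compare (100 or more cells per library), 4 were higher and 8 lower, and the interval lay below 0 in 7 and above 0 in 0. The 12 take in a B cell-like, the neutrophil-like and the T cell-like cluster, which lie outside the compartment. Those with the interval below 0 include the neutrophil-like and T cell-like clusters, and the T cell-like interval held 0 without the highest cell of each library.

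*Tnf* UMIs were concentrated in few cells. A UMI was found in 740 of 4613 β-glucan and 720 of 3677 PBS compartment cells, and the 1% of cells with most *Tnf* UMIs held 33.4% and 37.6% of them. Leaving out the 10 cells with most *Tnf* UMIs in each library gave a ratio of -0.33, and the call was kept. A list of 15 immediate-early and dissociation-responsive genes was also lower in the β-glucan compartment, with a summed level of 2354 against 2757 CPM (4 genes higher and 11 lower), and the part of that difference in *Tnf* was not tested.

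*Il6* (ENSMUSG00000025746, chromosome 5, 30218112 to 30224979, plus strand) encodes the cytokine IL-6. It was found in the fewest cells of any member, with 368 UMIs in 33 of the cells kept, 82 UMIs in 11 β-glucan cells and 286 UMIs in 22 PBS cells. In the compartment it had 5 and 10 UMIs (0.0765 and 0.165 CPM), below the minimum for a call. Of the 368 UMIs, 28 with β-glucan and 272 with PBS lay in the neutrophil-like cluster. B cell-like and NK/cytotoxic-like cells had none, which allows up to 1.21 and 1.65 CPM in B cell-like and 3.19 and 5.30 CPM in NK/cytotoxic-like cells. In thinned cells an *Il6* UMI was found in 2 of 165 (1.21%) and 10 of 84 (11.9%) neutrophil-like cells. Thinned B cell-like cells had it in 0 of 212 and 0 of 181. Without thinning the neutrophil-like shares were 1.19% and 6.49%, of 253 and 185 cells. Thinning cannot add UMIs to a cell. The higher thinned share with PBS therefore came from leaving out shallower cells and does not stand for the whole cluster. Median depths before thinning were 9494 and 4726 UMIs in neutrophil-like and 5552 and 5958 UMIs in B cell-like cells.

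The *Il6* UMIs of the neutrophil-like cluster came from cells that carried basophil genes. In this cluster 16 cells, called basophil-marker cells here, had a UMI of at least 3 of 11 basophil and mast cell markers, and each had 5 to 7 of them, whereas no other cell of the cluster had more than 2. The group was formed after the *Il6* values had been seen, from the marker list and not from *Il6*. These cells held 297 (80.7%) of the *Il6* UMIs. An *Il6* UMI was found in 13 of the 16 (81.3%, 54.4% to 96.0%), which was 1 of 3 β-glucan cells and 12 of 13 PBS cells. The highest held 147, 53, 29 and 17 UMIs in the PBS library and 25 in the β-glucan library. The rest of the neutrophil-like cluster, 250 and 172 cells, had 3 and 0 *Il6* UMIs.

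**Figure D2:**
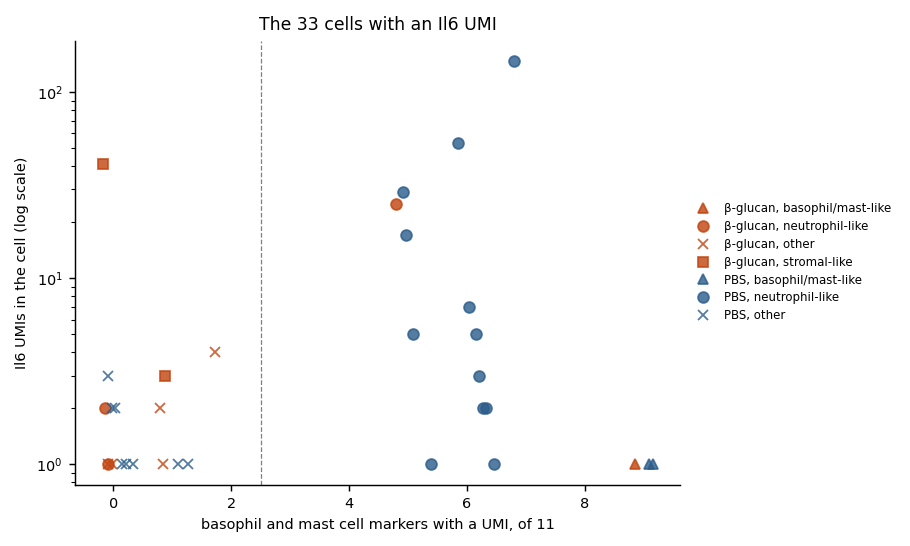
Each point is 1 of the 33 cells with an *Il6* UMI; the x axis counts how many of 11 basophil and mast cell markers had a UMI in the cell (points are spread sideways for sight), the y axis gives its *Il6* UMIs on a log scale, colour is the library and shape the cell class. The dashed line marks the limit of 3 markers; to its right lie 13 neutrophil-like cells with 1 to 147 *Il6* UMIs and 3 basophil/mast-like cells with 1 each, and to its left 1 stromal-like cell holds 41.

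The genes of these cells are given as a description, since the basophil and mast cell markers chose them. *Gata2*, a transcription factor of basophils and mast cells, had a UMI in 16 of 16, the basophil protease gene *Mcpt8* in 3 of 3 β-glucan and 10 of 13 PBS cells, and *Cd200r3* in 3 and 12. *Ms4a2* and *Fcer1a*, which encode chains of the high-affinity IgE receptor, had UMIs in 2 and 13, and in 3 and 10 cells. The mast cell genes *Kit* and *Mcpt4* had a UMI in 1 and 2 PBS cells and in 0 β-glucan cells, and the neutrophil gene *S100a8* in 1 PBS cell, which held 246 UMIs of it. *Il4*, a cytokine that basophils make, had 3 and 154 UMIs in them, and *Osm*, of the IL-6 family, 48 and 271. *Tnf* had 20 and 37 UMIs there and *Il10* had 0. *Itgam* had a UMI in 1 of 3 and 6 of 13 of them.

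Basophil-marker cells were 3 of 5696 β-glucan cells (0.0527%, 0.0109% to 0.154%) and 13 of 4553 PBS cells (0.286%, 0.152% to 0.488%). The *Il6* level within them was 1581 and 2601 CPM. Over all cells kept, *Il6* was lower in the β-glucan library, with a log2 ratio of -1.95 (-2.32 to -1.59). Without the basophil-marker cells the sums were 57 and 14 UMIs and the ratio turned to 1.88 (1.01 to 2.84), and 44 of those 57 UMIs lay in 2 stromal-like cells, 41 of them in 1 cell. Outside both sets 13 and 14 UMIs remained. The direction of *Il6* in these libraries thus rested on 16 basophil-marker and 2 stromal-like cells, and with pooled mice it cannot be told how many animals they came from. Among the 328 β-glucan and 210 PBS cells of highest doublet score, 0 were basophil-marker cells. Since the doublet caller did not work on these libraries, this rank does not settle whether any of these cells are doublets.

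The neutrophil-like cluster itself differed between the libraries in other cell type genes. Macrophage markers summed to 12460 CPM with β-glucan and 5823 CPM with PBS, neutrophil markers to 18849 and 36010 CPM, and median depth was 9494 and 4726 UMIs. Their part in any ratio in this cluster was not tested.

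*Il10* (ENSMUSG00000016529, chromosome 1, 130947581 to 130952711, plus strand), which encodes the anti-inflammatory cytokine IL-10, had 187 UMIs in 127 β-glucan cells and 150 UMIs in 111 PBS cells. Its level was highest in T cell-like cells, with 26.2 CPM (17.8 to 37.3) and 14.9 CPM (9.31 to 22.5). Those UMIs came from 7 and 10 cells, and the highest cell held 16 of the 31 β-glucan UMIs. Over both libraries this level lay apart from that of every other class, and neighbouring classes below it overlapped in their intervals. Stromal-like and B cell-like cells lay below macrophage-like and APC-like cells beyond counting error. Stromal-like and NK/cytotoxic-like cells had none.

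In macrophage-like cells *Il10* was at 1.90 and 2.08 CPM. APC-like cells had 3.25 CPM with β-glucan and 1.65 CPM with PBS, a log2 ratio of 0.98 (0.29 to 1.69) below the minimum for a call, and the *Ccl17*-led cluster had 17 and 3 UMIs. In the compartment it was at 2.17 and 1.95 CPM, and the ratio of 0.16 (-0.20 to 0.52) left a difference undetectable at this depth. An *Il10* UMI was found in 6 of 91 (6.59%) and 6 of 112 (5.36%) thinned T cell-like cells. Before thinning, which left out shallower cells, the shares were 5.98% and 8.06% of 117 and 124 cells. Thinned NK/cytotoxic-like cells had it in 0 of 71 and 0 of 50. Median depths before thinning were 7766 and 9409 UMIs in T cell-like and 7638 and 7921 UMIs in NK/cytotoxic-like cells.

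*Tgfb1* (ENSMUSG00000002603, chromosome 7, 25386390 to 25404506, plus strand) encodes TGF-β1 and was found in every class. It was at 232 and 242 CPM in APC-like cells, 212 and 226 CPM in macrophage-like cells and 191 and 238 CPM in T cell-like cells. Stromal-like cells had the lowest level, 56.0 and 57.7 CPM, below every other class beyond counting error. Neighbouring classes above that overlapped in their intervals.

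In the compartment *Tgfb1* was at 216 CPM with β-glucan and 231 CPM with PBS, a log2 ratio of -0.10 (-0.13 to -0.06). The interval left out 0, but the difference was under the 25% limit. Among compartment clusters with at least 100 cells per library, the lowest ratios were -0.33 in the *Plac8*-led cluster and -0.30 in the *Olr1*-led one.

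Both TNF receptor genes were highest in neutrophil-like cells. *Tnfrsf1a* (ENSMUSG00000030341, chromosome 6, 125325566 to 125339632, plus strand), which encodes TNFR1, was at 154 and 182 CPM there, 120 and 117 CPM in stromal-like cells and 106 and 109 CPM in macrophage-like cells. *Tnfrsf1b* (ENSMUSG00000028599, chromosome 4, 144938938 to 144973477, minus strand), which encodes TNFR2, was at 310 and 328 CPM in neutrophil-like cells. The pair parted in stromal-like cells, where *Tnfrsf1b* had its lowest level, 21.9 and 17.0 CPM, while *Tnfrsf1a* was among its highest. *Tnfrsf1a* was lowest in basophil/mast-like cells, at 28.4 and 15.1 CPM, and in B cell-like cells, at 31.8 and 13.2 CPM, and these did not differ beyond counting error.

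*Il6ra* (ENSMUSG00000027947, chromosome 3, 89771366 to 89820719, minus strand), which encodes the ligand-binding chain for IL-6, was highest in the *Plac8*-led cluster, at 340 CPM (311 to 370) and 418 CPM (381 to 458). APC-like cells had 268 and 244 CPM and macrophage-like cells 228 and 213 CPM. Stromal-like cells had 56.5 and 74.7 CPM, with basophil/mast-like (60.5 CPM) and T cell-like cells (64.8 CPM) below them in the PBS library, so no single class was lowest. Neutrophil-like cells lay above macrophage-like cells with β-glucan, at 249 CPM (233 to 265) against 228 CPM (224 to 232). With PBS they lay below them, at 182 CPM (162 to 205) against 213 CPM (208 to 217). The intervals overlapped only when both libraries were summed.

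*Il10ra* (ENSMUSG00000032089, chromosome 9, 45165132 to 45180563, minus strand), the ligand-binding chain for IL-10, was also highest in the *Plac8*-led cluster, at 195 and 223 CPM. It was at 137 and 142 CPM in macrophage-like and 138 and 136 CPM in APC-like cells, which did not differ beyond counting error. In stromal-like cells it was near 0, at 5.35 and 9.11 CPM, and a UMI was left in 0.952% and 2.74% of these cells after thinning (7.55% and 12.3% before), against 48.1% and 48.0% of macrophage-like cells after thinning.

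The TGF-β receptor genes were high in different macrophage-like clusters. *Tgfbr1* (ENSMUSG00000007613, chromosome 4, 47353134 to 47414931, plus strand), the signalling chain, reached 532 CPM with β-glucan and 460 CPM with PBS in the *Olr1*-led macrophage-like cluster, and 400 and 397 CPM in the *Plac8*-led cluster. *Tgfbr2* (ENSMUSG00000032440, chromosome 9, 115913361 to 116004800, minus strand), the ligand-binding chain, was high in the macrophage-like cluster led by *Ednrb*, *Cd209f* and *Cd163*, at 436 and 443 CPM, and in B cell-like cells, at 363 and 388 CPM. In the *Ednrb*-led cluster *Tgfbr1* was low, at 132 and 128 CPM. Conversely, *Tgfbr2* in the *Olr1*-led cluster was at 179 and 170 CPM, and its lower levels were in the *Ccl17*-led cluster, at 93.5 and 72.5 CPM. Basophil/mast-like cells were high for both genes, with *Tgfbr1* at 325 and 370 CPM and *Tgfbr2* at 248 and 316 CPM. In the *Plac8*-led cluster *Tgfbr2* was at 277 and 212 CPM.

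**Figure D3:**
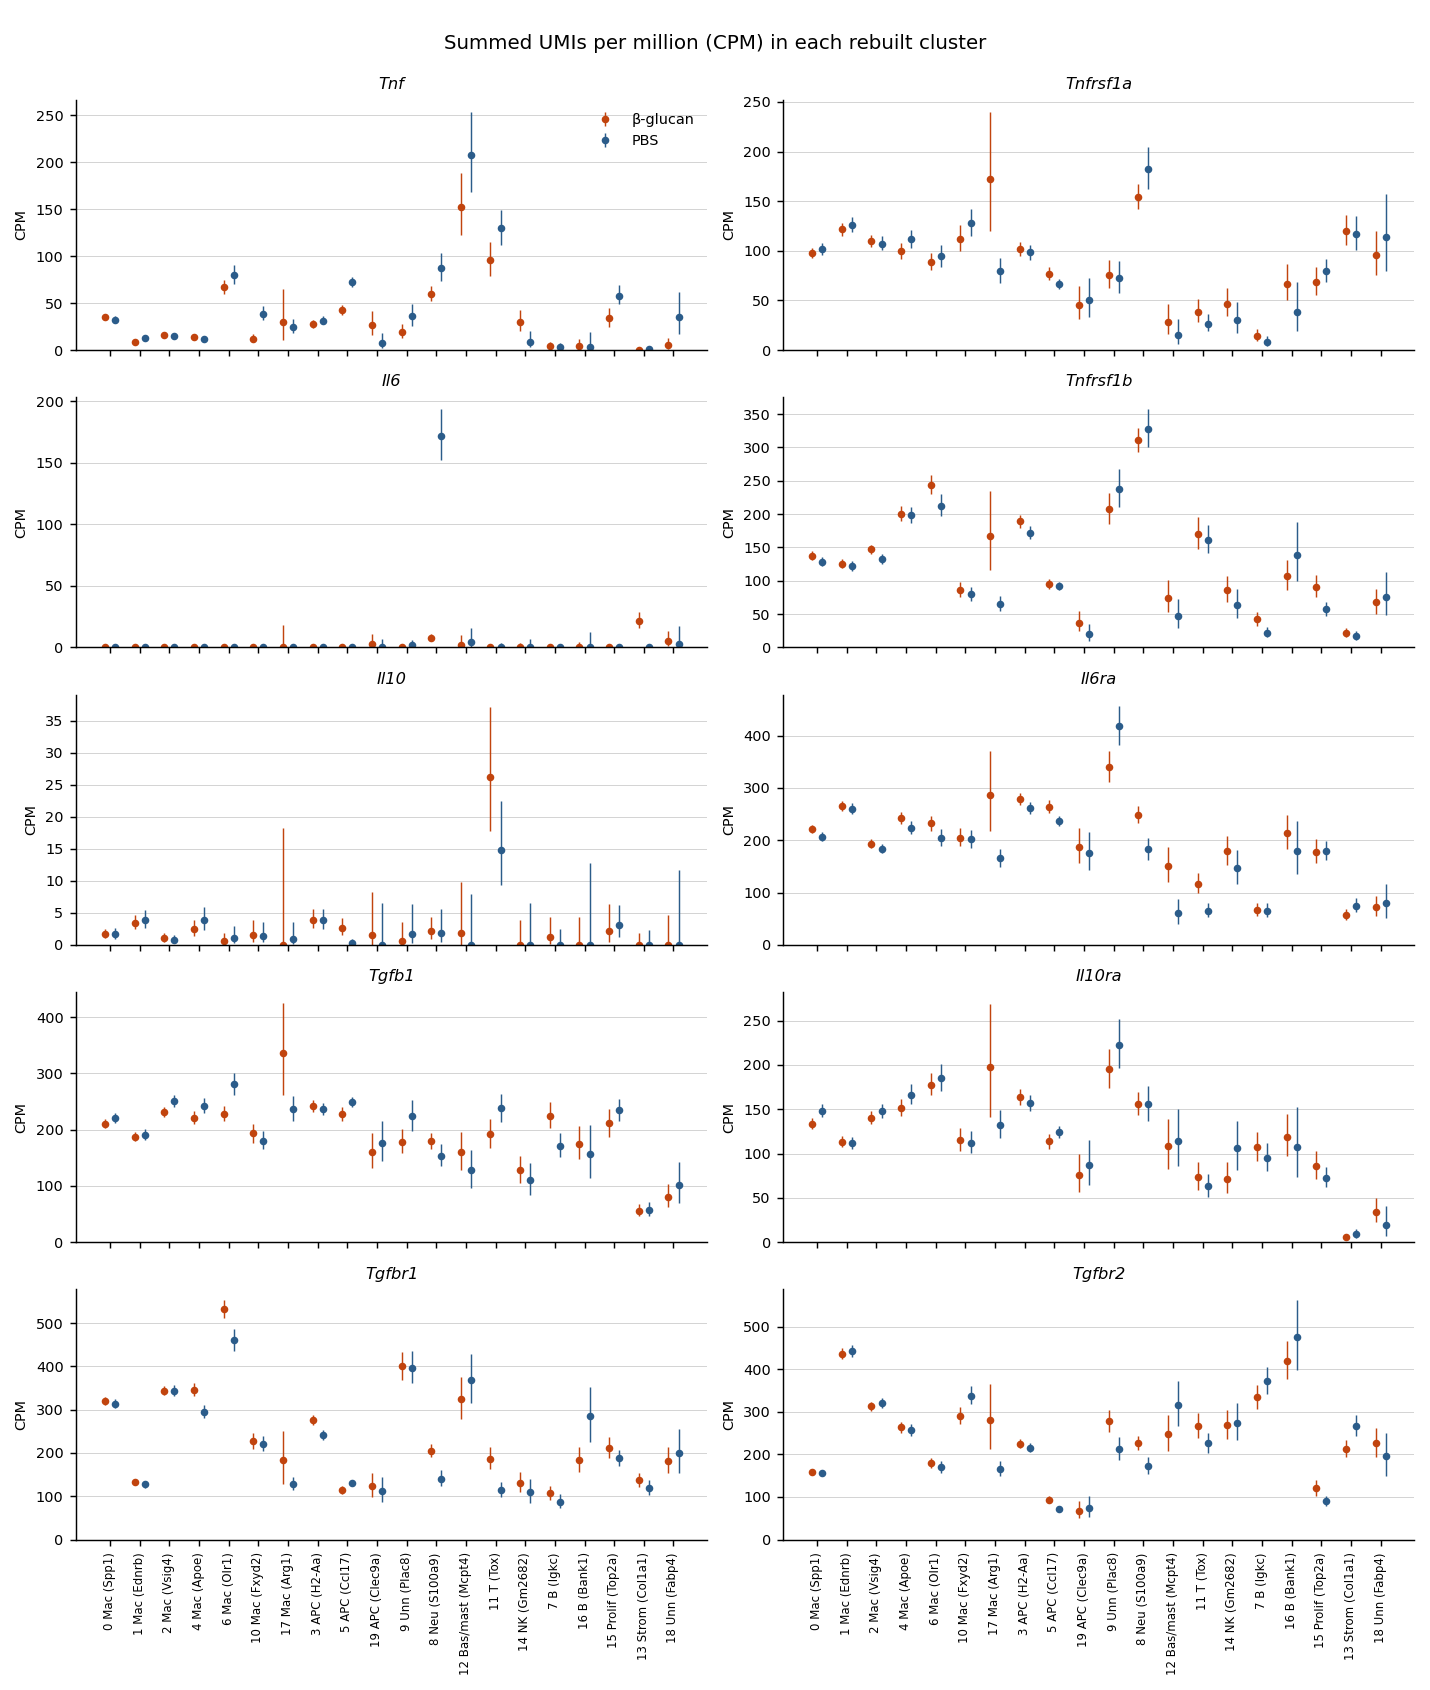
CPM (y axis, linear from 0) of each of the 10 members in each of the 20 rebuilt clusters (x axis, cluster number, class and first leading gene); points are the β-glucan and PBS libraries and bars are exact 95% Poisson intervals. *Il6* stands out in the PBS neutrophil-like cluster at 172 CPM, *Il10* in the T cell-like cluster, and the *Olr1*-led and *Ednrb*-led clusters are high for *Tgfbr1* and *Tgfbr2* in turn.

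The receptor chains were also counted cell by cell, in cells thinned to 5000 UMIs. In compartment cells both TNF receptor genes had a UMI in 19.1% of β-glucan and 18.4% of PBS cells. *Il6ra* together with *Il6st*, which encodes gp130, was found in 20.1% and 19.4%, and *Il10ra* together with *Il10rb* in 23.6% and 22.9%. Both TGF-β receptor genes were found in 40.4% and 36.2%. Taken singly, *Tnfrsf1a* had a UMI in 38.7% and 38.7% and *Tnfrsf1b* in 49.5% and 47.0% of compartment cells. The shares were 67.3% and 65.1% for *Il6ra*, 29.4% and 28.9% for *Il6st*, 48.5% and 48.4% for *Il10ra*, and 47.7% and 46.4% for *Il10rb*. *Tgfbr1* was found in 61.8% and 55.7% and *Tgfbr2* in 65.0% and 63.0%. Whether paired chains shared cells more often than separate detection would give was not tested. Shares with both chains are lower limits, since a gene with no UMI at this depth may still be expressed. In stromal-like cells *Il6st* had a UMI in 67.6% and 63.0% of cells and *Il6ra* in 25.7% and 24.7%.

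Receptor genes differed little between the libraries in the compartment. *Tgfbr1* was at 281 CPM with β-glucan and 246 CPM with PBS, a log2 ratio of 0.19 (0.16 to 0.22), *Tnfrsf1b* at 151 and 133 CPM (0.18, 0.14 to 0.23), and *Tgfbr2* at 251 and 231 CPM (0.12, 0.09 to 0.15). *Il6ra* was at 240 and 226 CPM (0.09, 0.05 to 0.12). These 4 intervals lay above 0, but no difference reached the 25% limit. *Tnfrsf1a*, at 101 and 99.4 CPM (0.03, -0.02 to 0.08), and *Il10ra*, at 138 and 142 CPM (-0.04, -0.08 to 0.01), did not differ beyond counting error. The median log2 ratio over the 8 members was 0.06, with 5 above 0, against a median of 0.03 over all 9806 genes, of which 57.8% were above 0 and the 10th to 90th percentile ran from -0.17 to 0.22.

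Over all genes at or above the minimum, the median log2 ratio rose with the span of a gene on the genome. It was -0.06 for spans under 10 kb, 0.06 for spans from 30 kb to under 100 kb and 0.14 for longer ones. Genes of at least 100 kb took a median of 18.9% of the UMIs of a β-glucan cell and 17.1% of those of a PBS cell. *Tgfbr2* spans 91.4 kb, *Tgfbr1* 61.8 kb, *Il6ra* 49.4 kb and *Tnfrsf1b* 34.5 kb, whereas *Tnf* spans 2.63 kb. When cells of both libraries were paired within clusters on this share, the ratio was -0.02 for *Tgfbr1*, -0.05 for *Tgfbr2*, 0.01 for *Il6ra* and 0.06 for *Tnfrsf1b*. In the paired cells, 3181 per library, the higher level of these receptor genes was not kept, other than a remainder for *Tnfrsf1b* (0.01 to 0.11). The ratio of *Il10ra* moved away from 0, from -0.04 to -0.10, and that of *Tgfb1* went from -0.10 to -0.05. The part of gene span in any of these ratios was not tested.

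**Figure D4:**
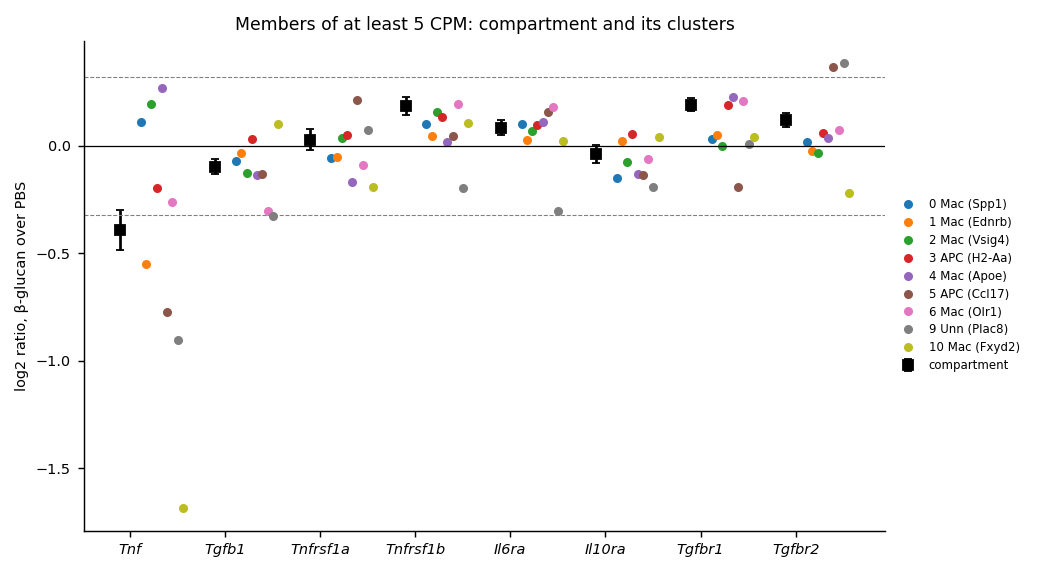
Log2 ratio of β-glucan over PBS (y axis) for the 8 members of at least 5 CPM; black squares with bars are the compartment and its exact 95% interval, coloured points its 9 clusters with at least 100 cells per library, and dashed lines mark the 25% limit for a call. *Tnf* in the compartment lies below the lower line at -0.39, with clusters from -1.69 to 0.27, whereas the compartment values of the other 7 lie between -0.10 and 0.19.

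Outside the compartment, receptor genes showed larger ratios in smaller sets of cells. The shares of all genes called are given for the compartment only, so ratios by class are not read as particular to these genes. *Il6ra* was higher with β-glucan in T cell-like cells, at 117 against 64.8 CPM (0.85, 0.46 to 1.24), in basophil/mast-like cells, at 151 against 60.5 CPM (1.32, 0.69 to 1.99), and in neutrophil-like cells, at 249 against 182 CPM (0.45, 0.25 to 0.64). In basophil/mast-like cells 31 of its 85 β-glucan UMIs came from 1 cell, and without the highest cell of each library the ratio was 1.11. Markers of other cell types were also higher in the β-glucan basophil/mast-like cells, with sums of 1136 against 6.49 CPM for neutrophil, 5962 against 3312 CPM for macrophage and 2401 against 778 CPM for APC markers, and their part was not tested. *Tgfbr1* was higher in T cell-like cells, at 187 against 115 CPM (0.70), where 1 β-glucan cell held 34 of 221 UMIs. Proliferation markers summed to 144 CPM with β-glucan and 745 CPM with PBS in the T cell-like cells, and their part in these ratios was not tested. In B cell-like cells *Tnfrsf1a* was at 31.8 against 13.2 CPM (1.26, 0.59 to 1.99), from 79 and 24 UMIs. There *Itgam* was at 121 against 64.5 CPM and macrophage markers summed to 4277 against 2877 CPM, and their part was not tested.

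*Tnf* was lower with β-glucan in APC-like cells (-0.68, -0.84 to -0.53) and neutrophil-like cells (-0.56, -0.88 to -0.25). Of the 500 β-glucan and 988 PBS *Tnf* UMIs of APC-like cells, most lay in the *Ccl17*-led cluster, whose counts are given above. The ratio was -0.44 (-0.79 to -0.10) in T cell-like and -0.44 (-0.88 to -0.01) in basophil/mast-like cells, but both calls were lost without the highest cell of each library, at -0.04 (-0.42 to 0.35) and -0.32 (-0.80 to 0.15). In T cell-like cells the levels without those cells were 86.8 CPM with β-glucan and 89.0 CPM with PBS. The direction there turned only when the PBS cell alone was left out, against 95.7 CPM in all β-glucan cells. Without the basophil-marker cells the neutrophil-like levels were 54.1 and 69.0 CPM, with a ratio of -0.35 (-0.70 to 0.01). NK/cytotoxic-like cells went the other way, at 29.8 and 8.84 CPM from 28 and 5 UMIs. There macrophage markers summed to 4318 against 2517 CPM and NK/cytotoxic markers to 2475 against 4214 CPM, and their part was not tested. In macrophage-like cells the interval of *Tnf* held 0. *Tgfbr2* was higher with β-glucan in APC-like cells, at 160 against 128 CPM (0.32, 0.24 to 0.41). The *Ccl17*-led cluster, low for *Tgfbr2*, was 289 of 861 APC-like cells with β-glucan and 436 of 929 with PBS, and within the clusters the ratio was 0.37 there and 0.06 in the one led by *H2-Aa*. *Tgfbr2* was also higher in the *Plac8*-led cluster (0.39, 0.15 to 0.62), and lower in stromal-like cells (-0.33, -0.52 to -0.14), where the call was lost without the highest cell of each library (-0.29).

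Genes around these cytokines were read from 10 lists of 105 genes, of which 78 had at least 5 CPM in the compartment. Of the 78, 3 were called higher and 8 lower, beside 3.85% higher and 3.1% lower over all genes tested. Their median log2 ratio was 0.01. The genes called higher were *Lifr*, *Bcl6* and *P2ry12*, and those called lower were *Thbs1*, *Nfkbia*, *Osm*, *Bhlhe40*, *Socs3*, *Smad7*, *Zc3h12a* and *Nfil3*.

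In the TNF pathway, no shedding or signalling gene was called. *Adam17*, which encodes the sheddase of TNF, was at 121 and 124 CPM, and the genes of its cofactors *Rhbdf1* and *Rhbdf2* had ratios of 0.08 and -0.08. Of 20 genes for receptor adaptors, kinases and NF-κB subunits 0 were called, with a median of 0.03, from the adaptor genes *Traf1* at -0.22 and *Tradd* at -0.15 to *Tab1*, which encodes a partner of the kinase TAK1, at 0.16 and *Cflar*, which encodes an inhibitor of caspase-8, at 0.18. Of 10 genes that restrain NF-κB or TNF mRNA, 8 had a ratio below 0 and 2 were called lower, with a median of -0.17. Over all genes tested 3.1% were called lower, 57.8% had a ratio above 0 and the median was 0.03. Counts from lists this short, here and below, are not read as differences from those shares. *Nfkbia*, which encodes IκBα and is itself induced by NF-κB, was at 135 CPM with β-glucan and 209 CPM with PBS (-0.63, -0.67 to -0.59). *Zc3h12a*, which encodes the RNase Regnase-1, was at 26.4 and 33.2 CPM (-0.33), while *Otulin* (0.12) and *Zfp36l1* (0.10) were the highest of the list.

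In the IL-6 and IL-10 pathways, *Lifr*, which encodes the LIF receptor chain that pairs with gp130, was at 152 CPM with β-glucan and 112 CPM with PBS (0.44, 0.40 to 0.48). *Osm*, which encodes oncostatin M, was at 5.77 and 8.58 CPM (-0.57, -0.77 to -0.38). These levels are near the minimum of 5 CPM, and *Osm* was highest outside the compartment, in neutrophil-like cells at 214 and 556 CPM. The IL-11 receptor gene *Il11ra1* (-0.25) and the sheddase gene *Adam10* (0.08) were not called. *Socs3*, the feedback inhibitor gene of gp130 signalling, was at 71.1 and 92.3 CPM (-0.38), *Jak2* at 79.0 and 97.7 CPM (-0.31, not called) and *Stat3* at 204 and 188 CPM (0.12, not called). *Il10rb*, which encodes the shared IL-10 receptor chain, was at 131 and 127 CPM, and *Il20rb*, a chain for related cytokines, had the same ratio of 0.05. *Pias3*, which encodes an inhibitor of STAT3, was at 0.10. Of 9 IL-10 response genes 1 was called higher, the transcriptional repressor gene *Bcl6* at 71.7 and 53.4 CPM (0.43), and 2 lower, *Socs3* and *Nfil3*, a transcription factor gene at 10.2 and 12.8 CPM (-0.32). The IL-4 receptor gene *Il4ra* was at 0.20 and not called.

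In the TGF-β pathway, *Thbs1*, which encodes thrombospondin-1, an activator of latent TGF-β, was at 8.73 CPM with β-glucan and 17.1 CPM with PBS (-0.97, -1.12 to -0.82). Its highest level lay outside the compartment, in the neutrophil-like cluster, at 477 CPM over both libraries. The integrin gene *Itgav* (0.18), the proprotein convertase gene *Furin* (-0.23) and *Nrros* (0.00), whose product holds latent TGF-β1 on myeloid cells, were not called. *Smad7*, an inhibitory Smad gene induced by TGF-β, had 1665 and 2000 UMIs (-0.37), and the other 12 receptor and Smad genes tested lay between -0.15 for *Acvrl1* and 0.22 for *Acvr1b*, both receptor genes of the TGF-β family, with *Zfyve9*, which encodes a Smad anchor, at 0.18. Among response genes, *P2ry12*, a purine receptor gene, was at 199 and 155 CPM (0.36), and *Bhlhe40*, a transcription factor gene, was at 102 and 150 CPM (-0.56). *Ldlrad4*, which encodes an inhibitor of Smad activation, was at 408 and 348 CPM (0.23, not called). Immediate-early genes were lower in the same library, as given above, and their part in the ratios of *Nfkbia*, *Socs3* and *Bhlhe40* was not tested. Without the *Ccl17*-led cluster 4 of the listed genes were called lower, against 8 with it, so not all lower calls named here held without that cluster.

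**Figure D5:**
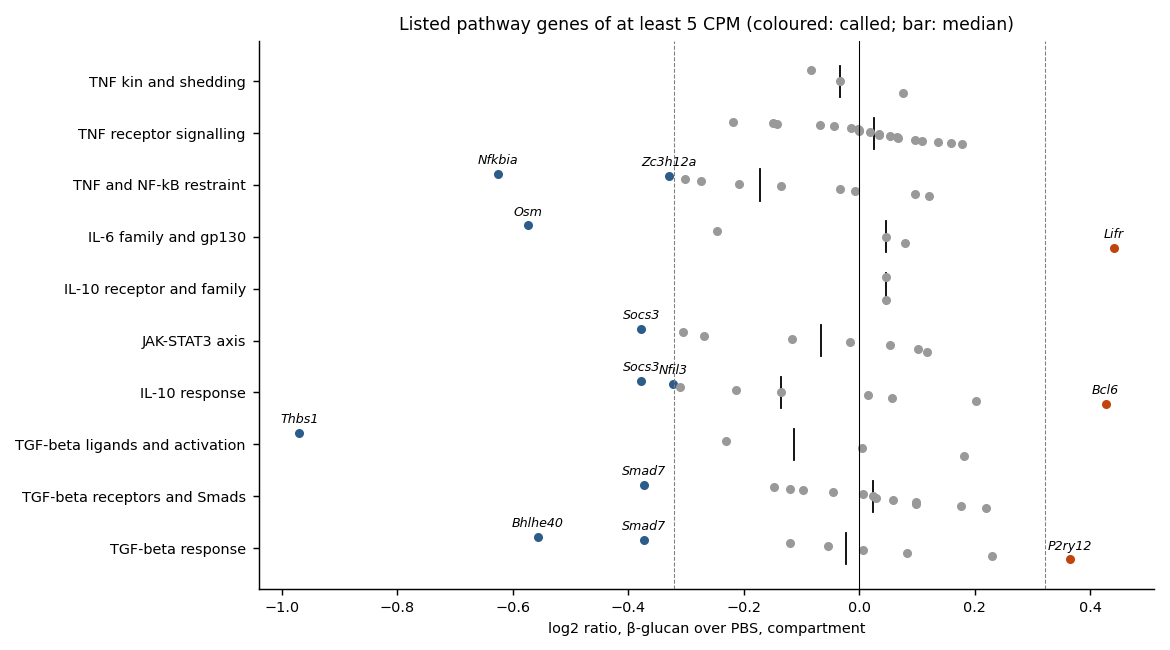
Log2 ratio of β-glucan over PBS in the compartment (x axis) for each listed gene of at least 5 CPM, by list; coloured points are called genes (red higher, blue lower), black bars the list medians and dashed lines the 25% limit. Points of the restraint list sit mostly left of 0, down to *Nfkbia* at -0.63, while the receptor signalling list lies within -0.22 and 0.18.

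Over the 20 clusters, genes were ranked by the Pearson correlation of their log2(CPM + 1) with that of each member, as a description. Those nearest to *Tnf* were *Rgs1* (0.88), *Nbeal2* (0.86) and *Tnfaip3* (0.82), which encodes A20, an inhibitor of NF-κB signalling. *Csf1* (0.87), which encodes M-CSF, was among the 3 nearest to *Il6*, after *Ifitm1* and *Gadd45a*, and *Ltbr* (0.90), a receptor gene of the TNF receptor family, among those of *Tnfrsf1a*, after *Sqor* and *App*. The *Il6* levels came from 33 cells, with 80.7% of UMIs in basophil-marker cells, so its correlations do not place these genes in the same cells. *Nckap1l* (0.94), *Fermt3* and *Naip5*, genes of blood cells, were nearest to *Il10ra*, and *Crlf2*, *Cotl1* and *Actr2* to *Tgfb1*. For *Il6ra* these were *Pid1*, *Apba1* and *Ptpro*, for *Tnfrsf1b* *Atg7*, *Tmem164* and *Cd300lb*, for *Tgfbr1* *Fmn1*, *Gnptab* and *Lpcat2*, and for *Tgfbr2* *Arhgef3*, *Pik3ca* and *Jade2*. The correlations for *Il10* were the lowest, at most 0.74. The clusters share the 2 libraries, and their number of cells and depth differ.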

How the data were processed

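CD45+CD11b+ cells sorted from the hind paw synovium were encapsulated with the 10x 3′ v3.1 chemistry, and the authors deposited UMI counts per gene and cell from Cell Ranger 7.0.0 with GRCm39 and Ensembl 104. The labels also name mm10, and whether intronic reads were counted is not given in the sources used here. From the counts, barcodes under 500 genes or over 10% mitochondrial UMIs were removed, which left most (5696 and 4553 of 7196 and 5760 barcodes, 79.2% and 79.0%). Libraries were merged without integration and clustered in Seurat 5.3.0 after normalisation by sctransform 0.4.2 (of 3000 variable genes 2922 were used after 78 listed genes were left out, 30 components, 20 neighbours, resolution 0.7). A class was named where at least 3 of its markers were each detected in 25% of cells and its leading genes did not go against the name, and 2 clusters stayed unnamed. Differences in class shares or levels from the study may come from these rebuilt names. Scrublet (scanpy 1.11.5) marked 0 and 2 cells (0.0439% of PBS cells), had not worked, and no doublet was removed.

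UMIs were summed per library and class or cluster. Intervals are exact Poisson for CPM, exact conditional for ratios and Clopper-Pearson for shares, all at 95% and for counting error alone. With 1 library per group no test was made. Where a count was 0, the limit is 3 counts. Sparse detection was compared after thinning each cell to 5000 UMIs. The members, the marker and pathway lists and the tests were chosen with earlier results of these data known. Every member is named, and from each pathway list every called gene and those with the 2 highest and 2 lowest ratios. For each member with at least 200 UMIs, the 3 genes of at least 5 CPM with the highest correlation over clusters are named. *Il4*, *Osm* in the basophil-marker cells and *Lta* were chosen after their values were seen. Alternatives were TMM scaling (edgeR 4.0.16), other weights, filters, minimums, folds and clusterings, whose effect is given at the end. The scripts (Python 3.11.15, R 4.3.3) were tested on simulated data. Coordinates are GRCm39 from GENCODE, matched by identifier for 31870 of 32524 genes, and promoter windows are RefSeq GRCm38.p6. No file column belonged to other samples.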

Additional observations from a re-analysis of the deposited data

Results flagged for a closer look

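In 1 library per group, some members were past the 25% limit for a call in opposite directions in different cell classes, and the difference between classes was not tested. Shares of all genes called are given for the compartment only, so these class ratios are not read as particular to the members. For *Tnf*, the log2 ratio of β-glucan over PBS was 1.75 in NK/cytotoxic-like cells (28 and 5 UMIs), against -0.68 in APC-like, -0.56 in neutrophil-like, -0.44 in T cell-like and -0.44 in basophil/mast-like cells and -0.90 in the *Plac8*-led cluster. Without the highest cell of each library the last 3 lost the call, at -0.04, -0.32 and -0.67, and their intervals then held 0. In T cell-like cells 61 of the 192 PBS UMIs lay in 1 cell. Macrophage markers summed higher and NK/cytotoxic markers lower in the β-glucan NK/cytotoxic-like cells, as given above. Most *Tnf* UMIs of APC-like cells lay in the *Ccl17*-led cluster in both libraries. For *Il6*, 44 UMIs in stromal-like β-glucan cells against 0 in PBS cells gave a ratio of 3.55 with 3 counts put for the PBS 0. In neutrophil-like cells the *Il6* ratio was -4.47. The stromal-like UMIs lay in 2 cells, 41 of them in 1, and without the highest cell of each library the call was lost. In the neutrophil-like cluster 297 *Il6* UMIs lay in the 16 basophil-marker cells. The rest of that cluster had 3 *Il6* UMIs with β-glucan and 0 with PBS, so the -4.47 rested on the basophil-marker cells.

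For *Il6ra*, the ratio was 0.45 in neutrophil-like, 0.48 in B cell-like, 0.85 in T cell-like and 1.32 in basophil/mast-like cells and -0.40 in stromal-like cells. For *Tgfbr2* it was 0.32 in APC-like cells, 0.39 in neutrophil-like cells and 0.39 in the *Plac8*-led cluster, against -0.35 in basophil/mast-like and -0.33 in stromal-like cells, both of which lost the call without the highest cell of each library (-0.35 and -0.29). No explanation was tested for any of these.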

How the results depend on the processing

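Of the counts of called genes and the order by class, 76 values under the alternatives stayed within 1.5 times the main value, and 11 moved. The number of members called lower went from 1 to 0 in macrophage-like clusters alone, without the *Ccl17*-led cluster and at 1.5-fold. Of the listed genes, 1 was called higher and 5 lower with equal weight per cluster, 0 and 2 at 1.5-fold, 6 higher at a minimum of 1 CPM, 5 lower at a minimum of 20 CPM and 4 lower without the *Ccl17*-led cluster. By share of cells without thinning, 4 of 10 members kept the same highest class. Single-member ratios stayed within the interval in 151 cases and left it in the others. *Il6* over all cells turned from -1.95 to 1.88 without the basophil-marker cells. Uncalled compartment ratios also changed sign, that of *Tnfrsf1a* under 4 alternatives (lowest -0.04) and those of *Tgfbr1* (-0.02) and *Tgfbr2* (-0.05) in paired cells. Leaving out the *Ccl17*-led cluster, the basophil-marker cells or the highest cells was chosen after seeing the data. The causes of these changes were not tested beyond the smaller cell sets and stricter limits themselves. No paired analysis was possible because each group is 1 library. Depth limits *Il6* and *Il10*, which lay below 5 CPM in the compartment.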

Other observations

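Among the 1500 β-glucan and 1207 PBS barcodes that failed the cell filter, *Tnf* had 34 and 77 UMIs (10.4 and 24.9 CPM), *Il6* 0 and 1 UMIs and *Il10* 5 and 6 UMIs. *Lta*, which encodes lymphotoxin-α, a TNF family ligand, had 6 UMIs in β-glucan and 123 in PBS T cell-like cells, and 102 of these lay in 1 PBS cell. At a clustering resolution of 1 the neutrophil-like cells fell into 2 clusters. One, with 114 β-glucan and 126 PBS cells, held 0 *Il6* UMIs, and the other, with 140 and 59 cells, held 28 and 272.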
